A study of Saccharomyces cerevisiae with 24 samples.

Results

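The 26S proteasome degrades proteins that carry a ubiquitin chain, and in budding yeast, Saccharomyces cerevisiae, its subunits are made in step under 1 transcription factor, Rpn4. The 41 genes described here are RPN4, the 14 genes of the core particle, the 6 RPT and 12 RPN genes of the regulatory particle, the accessory genes UMP1, BLM10 and ECM29, the ubiquitin gene UBI4, and CDC48, UFD1, NPL4 and TMC1. They were listed by name, and all 41 were found among the 12289 features of the count table. All 41 passed the filter on low counts, which kept 11776 features.

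Rpn4 binds a short promoter element, the proteasome-associated control element (PACE), and is itself destroyed by the proteasome, so that a shortfall of proteasome activity lets Rpn4 accumulate and raises its targets. The core particle is a barrel of alpha and beta subunits with the protease sites inside. The regulatory particle caps it, with a ring of RPT ATPases that unfolds substrates and RPN subunits that receive ubiquitin chains and remove them. Cdc48, with Ufd1 and Npl4, pulls ubiquitinated proteins out of complexes and membranes before they reach the proteasome. An auxin-inducible degron sends its tagged protein into this same pathway through a ubiquitin ligase of the SCF type.

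The series measured poly(A) RNA by strand-specific sequencing in 3 strains, each before (T0) and 60 min after (T60) the addition of 100 µM indole-3-acetic acid (IAA, auxin) and 1 µM beta-oestradiol at 30 °C in rich YPD medium. The 6 groups were the inducible degron strain of DCP2 (dcp2-ideg) at T60 and at T0, that of LSM1 (lsm1-ideg) at T60 and at T0, and the wild type (wt) at T60 and at T0, with 4 libraries in each. Dcp2 is the enzyme that removes the cap of mRNAs, and the Lsm1-7 ring binds shortened mRNAs and promotes their decapping. All T60 groups, wt included, received both compounds. The labels give neither the construction of the degron strains nor whether wt carries the degron machinery, and protein levels of Dcp2 and Lsm1 were not analysed here. They do not say that replicates were separate cultures, so p-values measure the spread between these libraries.

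Library totals lay between 41835174 and 83929951 counts, and the number of counts did not limit the values of these genes, each of which had at least 2364 counts in every library. Levels are given as CPM, the counts of a feature relative to its library's total, scaled by TMM factors, which lay between 0.859 and 1.49 over the 24 libraries and highest, 1.29 to 1.49, in dcp2-ideg T60. The DCP2 mRNA stood at 68.1 ± 13.2 CPM in dcp2-ideg T60 against 124 ± 29.3 CPM in dcp2-ideg T0 (SD, n = 4). The LSM1 mRNA stood at 87.8 ± 3.77 CPM in lsm1-ideg T60 against 102 ± 2.03 CPM in lsm1-ideg T0, and at 161 ± 8.63 CPM in wt T60 against 154 ± 6.25 CPM in wt T0. A degron acts on the protein, so these mRNA levels do not check its loss. In 4 libraries the log2 levels of protein-coding genes lay farther from the other replicates of their group than elsewhere, with a root mean square distance of 0.445 in dcp2-ideg T60 replicate 4, 0.624 in dcp2-ideg T0 replicate 4, 0.37 in wt T60 replicate 3 and 0.323 in wt T0 replicate 4, against 0.153 to 0.252 in the other 20. Results that rest on them are also given without them. Same-numbered T60 and T0 libraries deviated together within each degron strain, so values from a fit with a block per strain and number (the paired fit) are given where they change a call or a count. In dcp2-ideg this rests in part on replicate 4, which stood apart at both times. Same-numbered libraries of different strains also deviated together in some groups. Of the 41 features, 11 overlap another feature on their own strand and 22 overlap one on the opposite strand, and the strand setting of the counting is not stated in the sources.

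The PACE sequences come first because they are what most of these genes share apart from function. The 9-base PACE GGTGGCAAA was searched on both strands in the 300 bases before the start codon of every protein-coding gene of the RefSeq R64 genome (the build of sacCer3). It was present before 31 of the 41 genes (75.6%), against 73 of 6006 genes in all (1.22%). All 6 RPT genes, 12 of 14 core particle genes and 9 of 12 RPN genes had it. Among the other members it stood before ECM29, UBI4, CDC48 and TMC1. The 10 genes without it were RPN8, RPN10, RPN13, PRE5, PUP1, RPN4 itself, UMP1, BLM10, UFD1 and NPL4. The 8 sites shown belong to genes that the results below turn on, each with 15 bases on both sides, read 5′ to 3′ on the strand that carries the motif, with PACE in capitals.
RPT1 (chrXI:174043-174081, minus strand): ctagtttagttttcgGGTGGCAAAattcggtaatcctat
RPN6 (chrIV:286785-286823, minus strand): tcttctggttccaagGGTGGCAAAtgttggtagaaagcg
PRE1 (chrV:177678-177716, plus strand): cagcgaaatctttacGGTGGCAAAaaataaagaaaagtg
PRE4 (chrVI:249954-249992, plus strand): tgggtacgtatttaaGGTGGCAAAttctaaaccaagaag
ECM29 (chrVIII:39938-39976, plus strand): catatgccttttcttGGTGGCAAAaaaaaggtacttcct
UBI4 (chrXII:65344-65382, plus strand): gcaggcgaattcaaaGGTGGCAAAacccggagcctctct
CDC48 (chrIV:238782-238820, minus strand): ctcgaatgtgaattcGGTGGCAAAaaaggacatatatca
TMC1 (chrXV:427452-427490, minus strand): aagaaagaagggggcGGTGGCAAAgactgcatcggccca

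Across the 31 genes the site began between 84 bases (RPT6) and 251 bases (TMC1) before the start codon, and it lay on either strand. In PRE7 and PRE10 it lay inside the counted feature, at 87 and 128 bases before the start codon. Their features begin 259 and 159 bases before it. Other elements were rare before these genes or as frequent as elsewhere. The heat shock element, taken as GAA, TTC and GAA with 2 free bases between each, was found before 1 member, RPN4, where it begins 21 bases before the start codon (2.44% of members against 0.866% of all genes). The stress response element AGGGG was found before 11 members (26.8% against 22.2%), the Yap1 element TTAGTAA before 4 (9.76% against 7.84%) and the pleiotropic drug response element TCCGNGGA before 0 (against 1.32%). Each was searched on both strands in the same window, and none of these motifs contains another. Over 500 bases the heat shock element stood before 2 members (4.88% against 1.48% of all genes). The second was UBI4, with matches beginning 379 and 384 bases before the start codon, and RPN4 had another at 348. In that window RPN4 also had drug response elements at 399 and 442 bases (2.44% of members against 2.91%) and a Yap1 element at 374. A match describes letters and is no measurement of binding.

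**Figure D1:**
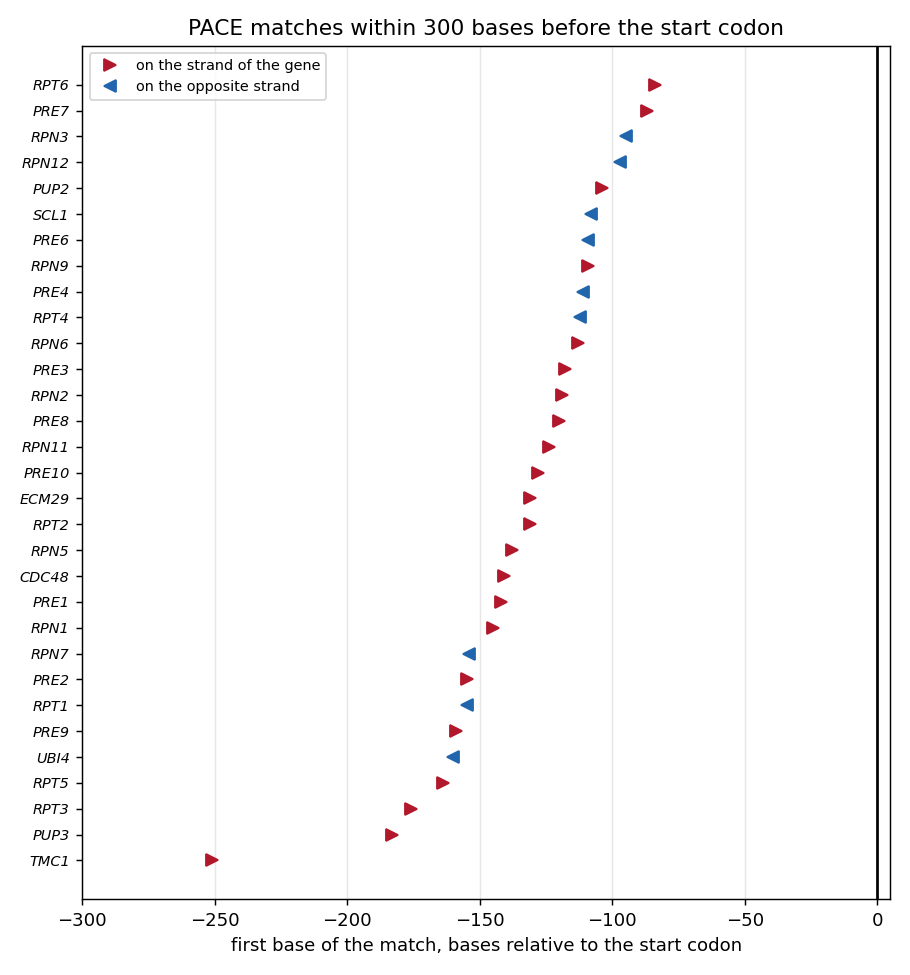
Position of the PACE match before the start codon in the 31 genes that have one; the x axis gives bases relative to the start codon (at 0), each row is 1 gene, and the triangles point right for a match on the strand of the gene and left for one on the opposite strand. The matches lie between 84 and 251 bases before the start codon, with TMC1 the farthest.

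The first question was which of the 41 genes changed in dcp2-ideg more than in wt, which received the same compounds. Beyond the wt change, UBI4, NPL4 and TMC1 rose in dcp2-ideg and none of the 41 fell (edgeR's quasi-likelihood test, adjusted p under 0.05 over all features). Over all features tested, 18.5% rose and 15.9% fell in this comparison (34.4% in either direction), so that both directions were rarer among the 41 genes than among all features. Among the 5752 protein-coding genes tested, 753 rose and 1575 fell. The median log2 difference was -0.09 over the 41 genes and -0.13 over the 32 subunits of the core and regulatory particles, against 0.07 over all features and -0.18 over protein-coding genes. Scaling by total counts moved the median of all features to 0.57 and that of the subunits to 0.38, with 21 of the 41 genes called as higher (37.9% of all features) and 0 as lower, so the sign of the subunits turned while they stayed 0.19 below all features. With protein-coding features alone the subunits lay 0.05 above the median of those features. Of the 32 subunits, 0 were called by edgeR, 2 had an unadjusted p under 0.05, and DESeq2 called 3 as lower. Over all 11776 features tested, 5132 had an unadjusted p under 0.05 by edgeR. The paired fit called 4 of the 41 genes as higher, ECM29 beside these 3, and 3 as lower (RPT2, RPN3 and RPN9), where 23.3% of all features rose and 21.2% fell.

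UBI4 (YLL039C, chromosome XII, 63902 to 65310, minus strand) encodes a chain of ubiquitin units in tandem and is the ubiquitin gene of the stress response. In dcp2-ideg, UBI4 had 419, 396, 416 and 458 CPM at T60 against 147, 130, 125 and 134 CPM at T0. In lsm1-ideg, UBI4 had 190, 163, 155 and 143 CPM at T60 against 126, 133, 114 and 93.2 CPM at T0. In wt, UBI4 had 147, 135, 154 and 96.3 CPM at T60 against 154, 120, 117 and 111 CPM at T0. The 4 dcp2-ideg T60 libraries stood above all other 20 libraries, and those of lsm1-ideg T60 stood above those of lsm1-ideg T0 without overlap. In dcp2-ideg, UBI4 rose 3.15-fold, by 1.65 ± 0.14 (log2, SE; edgeR adjusted p = 6.45e-10), and by 1.57 ± 0.19 beyond wt (adjusted p = 1.02e-06). The change in lsm1-ideg was 0.48 ± 0.14 (edgeR adjusted p = 0.0703), not called in this fit but called in the paired fit (edgeR adjusted p = 0.00277), by DESeq2, with scaling by total counts and with protein-coding features alone. The difference between the responses of dcp2-ideg and lsm1-ideg was itself called, at 1.17 ± 0.19 (edgeR adjusted p = 6.6e-05). The UBI4 feature overlaps that of YLL038C on its strand, and 14.7% of its 50-base words occur more than once in the genome, so the origin of some of its reads is uncertain.

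The other ubiquitin genes of yeast, RPL40A, RPL40B and RPS31, encode ubiquitin joined to a ribosomal protein, and in dcp2-ideg they fell where UBI4 rose. Beyond wt, RPL40A fell in dcp2-ideg by 1.39 ± 0.20, RPL40B by 1.29 ± 0.19 and RPS31 by 1.58 ± 0.34 on the log2 scale (edgeR adjusted p = 6.66e-06, 1.33e-05 and 0.000706). In lsm1-ideg, none of the 3 was called beyond wt, with values of -0.28 ± 0.20, -0.36 ± 0.19 and -0.32 ± 0.34. RPL40A and RPL40B are near-identical copies, so the split of their reads is uncertain. The 3 were also called as lower with scaling by total counts, with a median of -0.87 against -1.39.

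NPL4 (YBR170C, chromosome II, 576185 to 578137, minus strand) encodes a partner of Cdc48 that binds ubiquitin chains; its feature overlaps cryptic transcripts on the opposite strand. In dcp2-ideg, NPL4 stood at 106, 99.7, 114 and 120 CPM at T60, against 63.8, 63.6, 62.7 and 65.5 CPM at T0. In lsm1-ideg, NPL4 stood at 76.9, 82.2, 78.9 and 92.5 CPM at T60, against 63.9, 70.7, 69.6 and 68.5 CPM at T0. In wt, NPL4 stood at 69, 63.9, 78.2 and 71.8 CPM at T60, against 64.9, 66.5, 69.1 and 65.3 CPM at T0. All 4 dcp2-ideg T60 libraries stood above all libraries of the other 5 groups. NPL4 rose by 0.78 ± 0.086 in dcp2-ideg and by 0.69 ± 0.12 beyond wt (edgeR adjusted p = 4.51e-08 and 8.25e-05). In lsm1-ideg the libraries did not overlap either, yet the change of 0.28 ± 0.085 was not called (edgeR adjusted p = 0.101); it was called in the paired fit (edgeR adjusted p = 0.0275), by DESeq2, with scaling by total counts and with protein-coding features alone. The dcp2-ideg response exceeded that of lsm1-ideg by 0.50 ± 0.12 (edgeR adjusted p = 0.00261).

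TMC1 (YOR052C, chromosome XV, 426516 to 427356, minus strand) encodes an AN1-type zinc finger protein and is known as a target of Rpn4; its feature too overlaps a cryptic transcript on the opposite strand. In dcp2-ideg, TMC1 had 254, 260, 226 and 313 CPM at T60 against 130, 121, 106 and 159 CPM at T0. In lsm1-ideg, TMC1 had 386, 388, 373 and 376 CPM at T60 against 116, 142, 110 and 94.4 CPM at T0. In wt, TMC1 had 103, 126, 149 and 98.5 CPM at T60 against 105, 106, 93.7 and 71.6 CPM at T0. In both degron strains the T60 libraries stood above their T0 libraries, and the lsm1-ideg T60 libraries stood above all dcp2-ideg T60 libraries. TMC1 rose 3.29-fold in lsm1-ideg, by 1.72 ± 0.15 (edgeR adjusted p = 1.63e-07), and 2.04-fold in dcp2-ideg, by 1.03 ± 0.15 (adjusted p = 3.72e-06). Beyond wt the rise was 1.38 ± 0.21 in lsm1-ideg and 0.69 ± 0.21 in dcp2-ideg (edgeR adjusted p = 0.00121 and 0.0141). The dcp2-ideg response was below that of lsm1-ideg by 0.69 ± 0.21 (edgeR adjusted p = 0.0164), a call that was lost with scaling by total counts, with protein-coding features alone and with a filter at 10 CPM, where the difference stayed negative. The wt change was 0.34 ± 0.15 and was not called (edgeR adjusted p = 0.995).

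**Figure D2:**
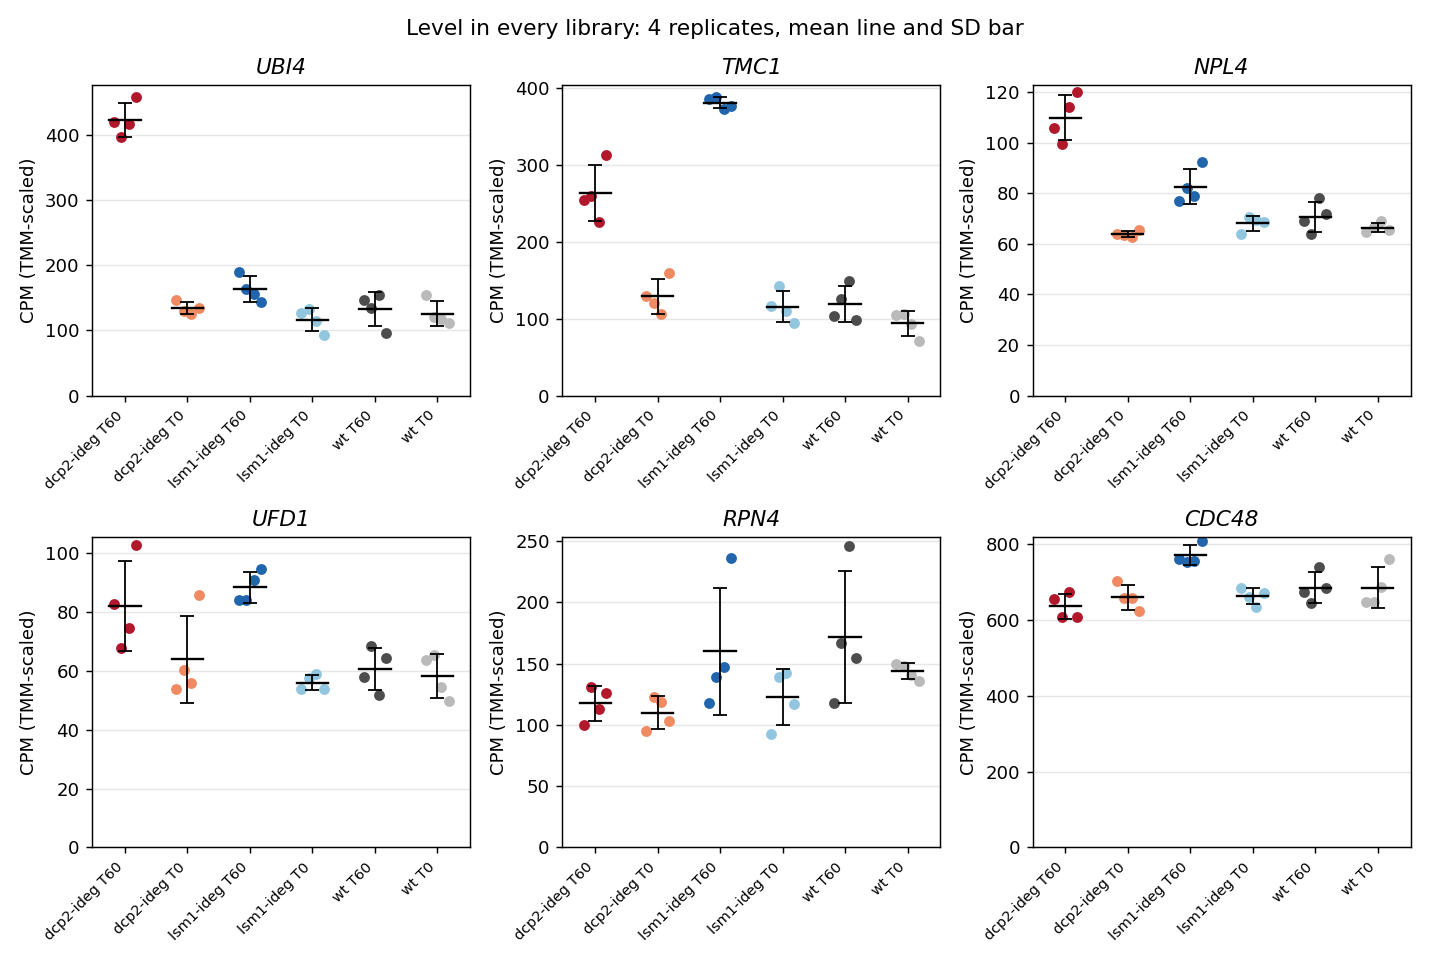
Level of 6 genes in each of the 24 libraries; the y axis is CPM scaled by TMM factors and starts at 0, each dot is 1 library, the long line is the mean and the bar is ± SD over 4 replicates. UBI4 and NPL4 are highest in dcp2-ideg T60, TMC1 in lsm1-ideg T60, UFD1 averages 81.9 and 88.4 CPM at T60 in dcp2-ideg and lsm1-ideg, and RPN4 and CDC48 overlap between most groups.

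The remaining Cdc48 genes differed from NPL4. UFD1, the other partner of Cdc48 in the same complex, averaged 81.9 ± 15.1 CPM in dcp2-ideg T60 and 64 ± 14.8 CPM in dcp2-ideg T0, 88.4 ± 5.19 CPM in lsm1-ideg T60 and 56 ± 2.6 CPM in lsm1-ideg T0 (SD, n = 4 each). It rose by 0.66 ± 0.14 in lsm1-ideg, where the groups did not overlap, and by 0.36 ± 0.14 in dcp2-ideg, where they did (edgeR adjusted p = 0.00986 and 0.034). The dcp2-ideg call was lost when any of 5 single dcp2-ideg libraries was left out (adjusted p up to 0.168 by edgeR), and neither strain's UFD1 response was called beyond wt. In the paired fit the lsm1-ideg response of UFD1 was called beyond wt (edgeR adjusted p = 0.0236).

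CDC48 (YDL126C, chromosome IV, 236037 to 238741, minus strand), the gene of the ATPase itself, was the most abundant of the 41 in every group. In dcp2-ideg, CDC48 had 654, 608, 673 and 608 CPM at T60 against 703, 657, 657 and 623 CPM at T0. In lsm1-ideg, CDC48 had 761, 753, 756 and 809 CPM at T60 against 684, 659, 634 and 672 CPM at T0. In wt, CDC48 had 673, 644, 739 and 685 CPM at T60 against 647, 646, 687 and 760 CPM at T0. The lsm1-ideg T60 libraries stood above the lsm1-ideg T0 libraries, with a change of 0.22 ± 0.082, and the other strains overlapped between times, with -0.053 ± 0.082 in dcp2-ideg and 0.00017 ± 0.082 in wt. None of these was called (edgeR adjusted p = 0.216, 0.61 and 0.999). The changes of CDC48 in both degron strains were called as higher with scaling by total counts and with protein-coding features alone.

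RPN4 (YDL020C, chromosome IV, 414976 to 416960, minus strand), the transcription factor of the proteasome genes, was called in none of the 8 comparisons by edgeR with TMM scaling of all features, and scaling by total counts called it as higher in dcp2-ideg at T60 against T0. In dcp2-ideg, RPN4 measured 100, 131, 113 and 126 CPM at T60 against 94.9, 123, 119 and 103 CPM at T0. In lsm1-ideg, RPN4 measured 118, 139, 147 and 236 CPM at T60 against 92.3, 139, 142 and 117 CPM at T0. In wt, RPN4 measured 118, 167, 246 and 155 CPM at T60 against 150, 148, 141 and 136 CPM at T0. The T60 libraries overlapped those of T0 in all 3 strains, and single libraries were high, replicate 4 in lsm1-ideg T60 and replicate 3 in wt T60. The log2 change was 0.10 ± 0.19 in dcp2-ideg, 0.39 ± 0.19 in lsm1-ideg and 0.25 ± 0.19 in wt (edgeR adjusted p = 0.704, 0.395 and 0.995). These SEs are the widest of the genes given by library, and a change of the size seen in the subunits was not detectable for RPN4. Rpn4 is controlled largely by degradation of the protein, which these data do not measure.

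The 32 subunit genes were set against each other per length of gene, since reads scale with length. Their median level was 177 CPM per kb in dcp2-ideg T60 and 189 in dcp2-ideg T0, 209 in lsm1-ideg T60 and 172 in lsm1-ideg T0, 183 in wt T60 and 175 in wt T0. Within wt T0 the lowest was RPN7 at 103 and the highest SCL1 at 255 CPM per kb, a 2.48-fold range. Core particle genes had a median of 200 CPM per kb in wt T0, against 173 for RPT genes and 142 for RPN genes. Among the accessory genes of the proteasome, BLM10 and ECM29 were lower, at 26.9 ± 1.72 and 14.6 ± 1.04 CPM per kb in wt T0 (SD, n = 4), and UMP1 lay within the range of the subunits. UBI4 stood at 89.1 ± 13.8 and TMC1 at 112 ± 18.8.

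Summed over the 32 subunits, lsm1-ideg T60 held 8293, 8015, 8135 and 8512 CPM against 7096, 6940, 7029 and 6780 CPM in lsm1-ideg T0. In dcp2-ideg the sums were 7038, 6288, 6634 and 8237 CPM at T60 against 7053, 6723, 6746 and 9079 CPM at T0. In wt they were 7248, 6988, 7349 and 7410 CPM at T60 against 7080, 7105, 6952 and 6680 CPM at T0. The lsm1-ideg T60 sums stood above those of lsm1-ideg T0 and of both wt groups, whereas the dcp2-ideg groups overlapped and replicate 4 was the highest at both times. As a share of all counts, unscaled, the subunits took 0.96% ± 0.178 in dcp2-ideg T60 and 0.688% ± 0.104 in dcp2-ideg T0, 0.811% ± 0.0301 in lsm1-ideg T60 and 0.642% ± 0.0115 in lsm1-ideg T0, 0.688% ± 0.0169 in wt T60 and 0.642% ± 0.0473 in wt T0 (SD, n = 4 each). As RNA came from whole cultures, fewer cells with a transcript and less of it per cell cannot be told apart.

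**Figure D3:**
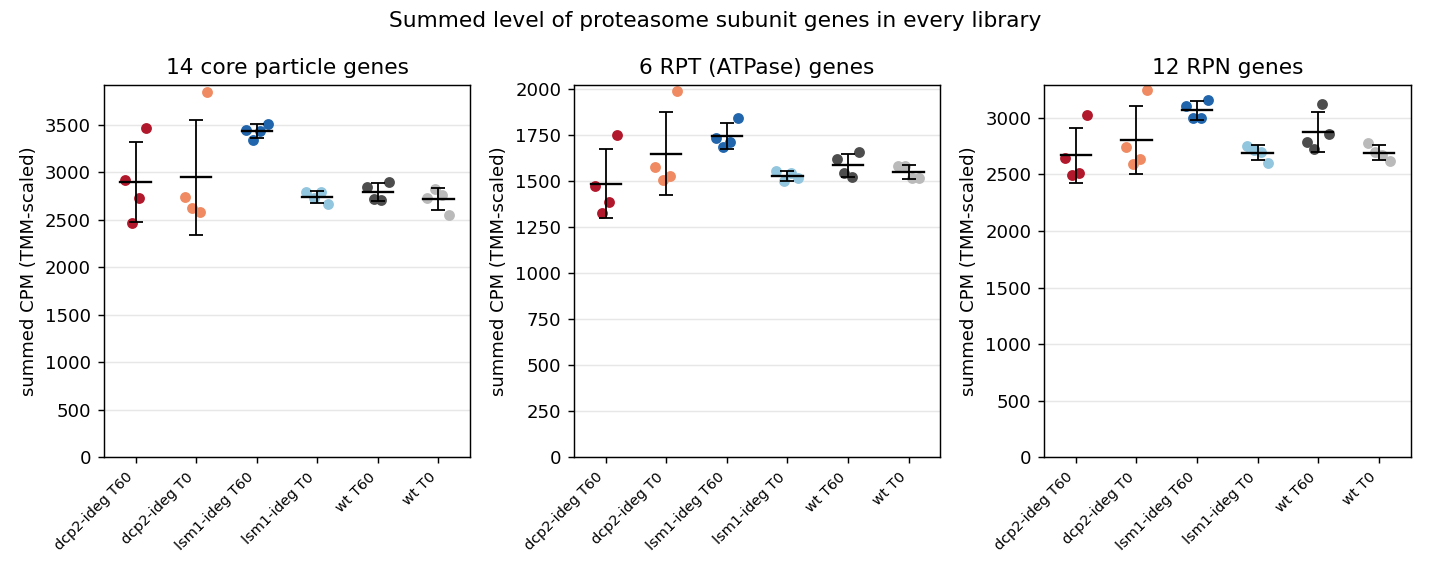
Summed level of the 14 core particle, 6 RPT and 12 RPN genes in each of the 24 libraries; the y axis is summed CPM scaled by TMM factors and starts at 0, each dot is 1 library, the long line is the mean and the bar is ± SD over 4 replicates. In all 3 panels the lsm1-ideg T60 libraries lie above the lsm1-ideg T0 libraries, and replicate 4 of dcp2-ideg lies above the other dcp2-ideg libraries of its time.

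In lsm1-ideg, T60 against T0, TMC1, ECM29 and UFD1 rose and none fell by edgeR's test, where 1.12% of all features rose and 0.73% fell (1.85% in either direction). The log2 change was positive in all 41 genes, with a median of 0.28, and 0.26 over the 32 subunits, against 0.03 over all features. In 35 of the 41 genes, and 28 of the 32 subunits, every T60 library stood above every T0 library, as did 7.14% of all features tested, and in 0 of the 41 every T60 library stood below, as did 9.03% of all features. By class that held for 14 of 14 core particle genes, 5 of 6 RPT genes and 9 of 12 RPN genes. The 6 genes that overlapped were RPN4, RPT3, RPN1, RPN3, RPN8 and BLM10.

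None of the 32 subunits was called by edgeR in lsm1-ideg, and their lowest adjusted p was 0.0736. The unadjusted p was under 0.05 in 17 of them and in 1528 of the 11776 features tested. With all 24 libraries kept, other settings called some of them, 3 with DESeq2, 7 with scaling by total counts (1.77% of all features rose), 8 with a filter at 10 CPM (2.43%), 9 with protein-coding features alone (1.84%) and 16 in the paired fit (2.96%). Their log2 changes ran from 0.05 (RPN1) to 0.46 (PRE3), and the core particle had the highest class median, 0.32, against 0.20 for RPT and 0.19 for RPN genes. The fit shares 1 spread per gene among all groups, and the count of calls also changed with the libraries that entered it. Without the 4 libraries that stood apart, 31 of the 41 genes were called as higher in lsm1-ideg T60, 24 of them subunits, where 4.62% of all features rose and 6.99% fell. Without dcp2-ideg T0 replicate 4 alone 15 were called (1.99% of all features rose), without wt T60 replicate 3 alone 6 (1.55%), and with lsm1-ideg and wt libraries alone 18 (1.97%). The median over the subunits was 0.26 to 0.28 in these fits.

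Beyond wt, TMC1 alone of the 41 genes was called in lsm1-ideg, where 0.187% of all features rose and 0.0255% fell (0.212% in either direction). The difference was positive in 38 of 41 genes, with a median of 0.20, against 0.03 over all features. Over the 32 subunits the median was 0.19, and 0 were called by edgeR or by DESeq2. The unadjusted p was under 0.05 in 7 of them and in 903 of the 11776 features tested. Without the 4 libraries that stood apart, 4 genes were called (PRE3, ECM29, UFD1 and TMC1), where 0.662% of all features rose and 0.755% fell, and the paired fit called ECM29, UFD1 and TMC1, where 0.679% rose and 0.594% fell. By class the median was 0.28 for core, 0.13 for RPT and 0.12 for RPN genes, and positive values made up 14 of 14 core, 6 of 6 RPT and 9 of 12 RPN genes.

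In dcp2-ideg, T60 against T0, UBI4, TMC1, NPL4, ECM29 and UFD1 rose and RPN1 fell, where 27.9% of all features rose and 23.9% fell (51.8% in either direction). Among the 5752 protein-coding genes tested, 1123 rose and 2245 fell. The 32 subunits had a median of -0.04, against 0.08 over all features and -0.19 over protein-coding genes. Scaling by total counts moved these medians to 0.51 for the subunits and 0.63 for all features and called 39 of the 41 genes as higher (53.6% of all features) and 0 as lower, so the subunits lay 0.12 below all features in both scalings. With protein-coding features alone the subunits lay 0.15 above the median of those features, and 12 genes were called as higher (29.6% of those features) and 0 as lower. Every T60 library stood above every T0 library in 4 of the 41 genes (ECM29, UBI4, NPL4 and TMC1) and below in 0, as did 24.9% of all features above and 16.7% below, and in 0 of the 32 subunits did the groups not overlap. RPN1, a scaffold in the base of the regulatory particle, averaged 312 ± 32.7 CPM in dcp2-ideg T60 and 384 ± 52.8 CPM in dcp2-ideg T0 (SD, n = 4 each). It fell by 0.30 ± 0.11 (log2, SE; edgeR adjusted p = 0.0218), with overlap between the groups, and its change was 0.24, called as higher, with scaling by total counts. The call as lower was lost without any 1 of dcp2-ideg T0 replicates 1, 2 and 3 and T60 replicate 4 (edgeR adjusted p up to 0.0866), with a filter at 10 CPM and with protein-coding features alone. Without the 4 libraries that stood apart, 8 genes rose and 4 fell, where 30.8% of all features rose and 27.1% fell, and in the paired fit 6 rose and 4 fell, where 31.5% rose and 28.1% fell.

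**Figure D4:**
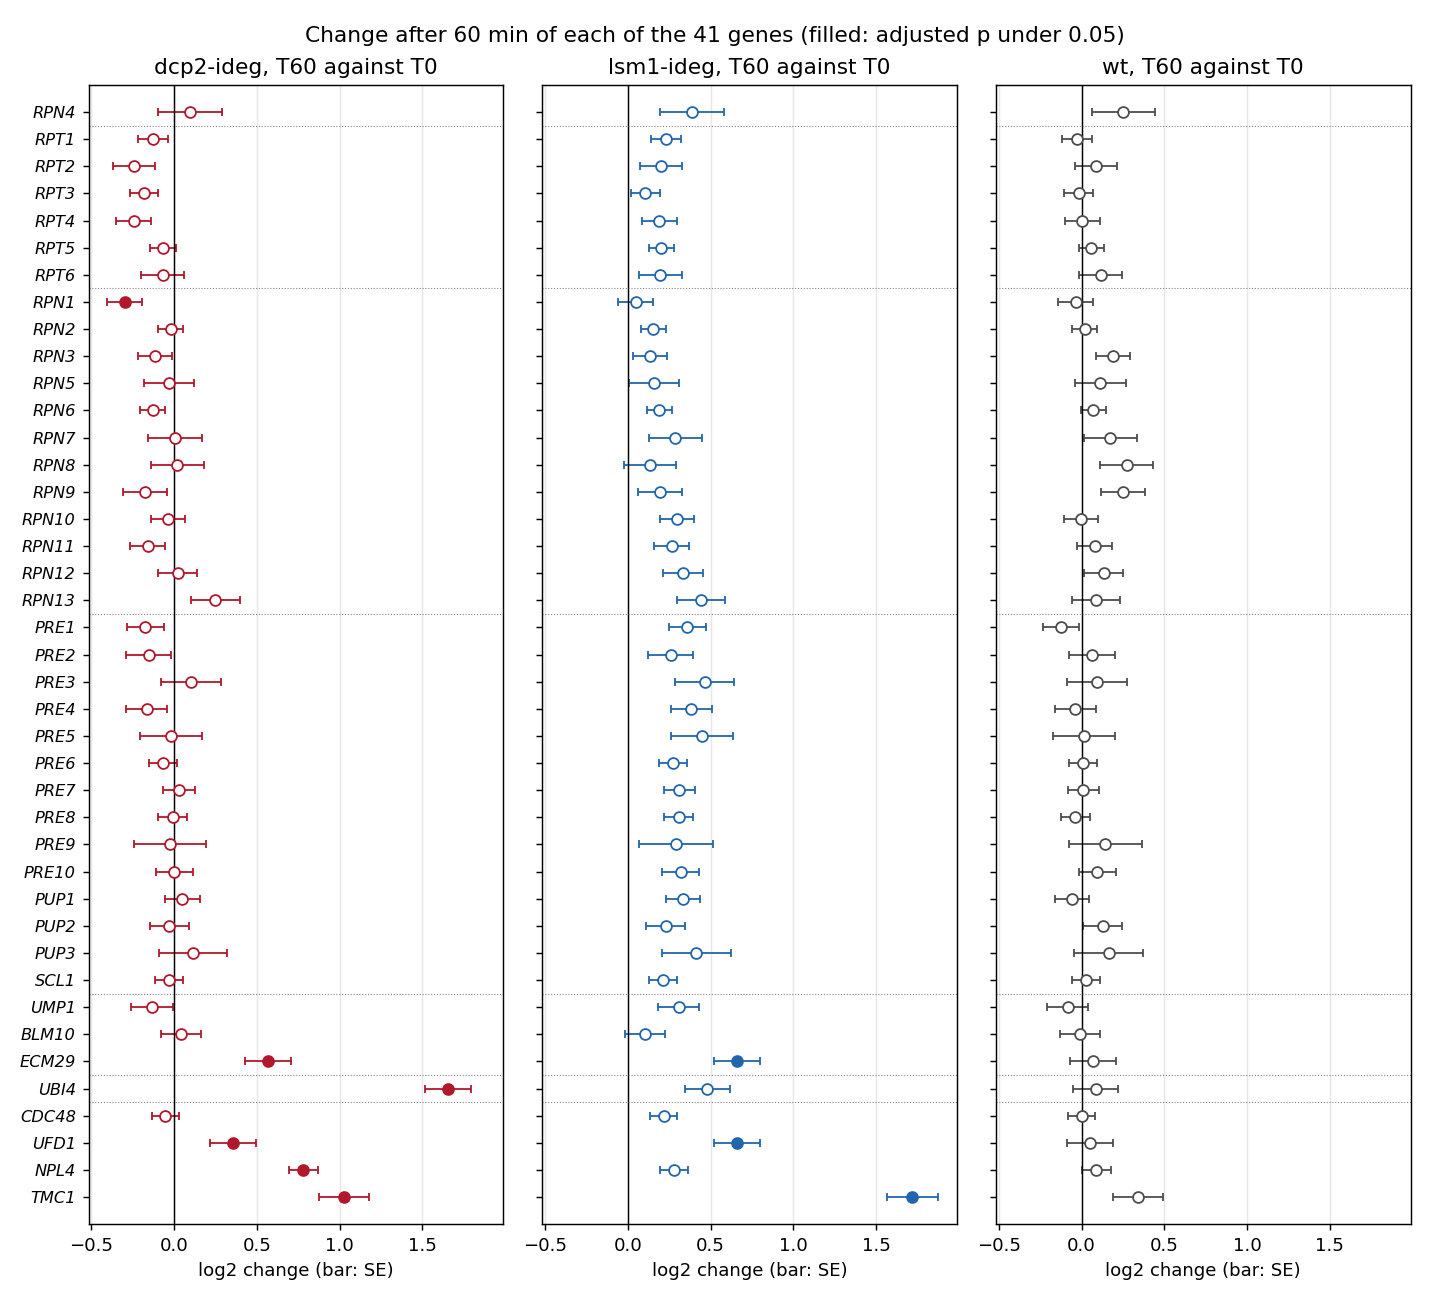
Log2 change, T60 against T0, of each of the 41 genes in dcp2-ideg, lsm1-ideg and wt; the x axis is log2 (0 is no change), each row is 1 gene, bars are ± SE from the edgeR fit and filled points have an adjusted p under 0.05. The lsm1-ideg points all lie right of 0 with a median of 0.28, the dcp2-ideg subunits lie around 0 with a median of -0.04, and UBI4, NPL4 and TMC1 stand to the right.

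The responses of the degron strains were then set against each other directly. The dcp2-ideg response was below the lsm1-ideg response in RPT1, RPT4, RPN6, RPN11, PRE1, PRE4, PRE6 and TMC1 and above it in UBI4 and NPL4, where 15.2% of all features were higher and 13.3% lower (28.5% in either direction). All 41 genes are protein-coding, and among the 5752 protein-coding genes tested 636 were higher and 1227 lower. The share of the 41 genes called as lower was near that of protein-coding genes. The subunits had a median difference of -0.32, negative in all 32, against 0.01 over all features and -0.15 over protein-coding genes. Scaling by total counts moved the median of all features to 0.46 and that of the subunits to 0.14, so the sign turned while the difference from all features stayed at -0.32. With protein-coding features alone the subunits lay 0.17 below the median of those features and none was called by edgeR. Without the 4 libraries that stood apart 26 genes were lower, 23 of them subunits, where 19.9% of all features were, and in the paired fit 24 were lower, 21 of them subunits, where 19.5% of all features were.

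RPT1 (YKL145W, chromosome XI, 174163 to 175716, plus strand) and RPT4 (YOR259C, chromosome XV, 812191 to 813759, minus strand) encode ATPases of the ring that unfolds substrates. In dcp2-ideg, RPT1 had 306, 285, 292 and 356 CPM at T60 against 329, 313, 330 and 385 CPM at T0. In lsm1-ideg, RPT1 had 383, 352, 365 and 378 CPM at T60 against 336, 300, 310 and 314 CPM at T0. In wt, RPT1 had 341, 305, 299 and 343 CPM at T60 against 340, 322, 318 and 332 CPM at T0. All RPT1 libraries of lsm1-ideg T60 stood above those of lsm1-ideg T0, and the dcp2-ideg groups overlapped. The dcp2-ideg response of RPT1 was -0.13 ± 0.09, that of lsm1-ideg 0.23 ± 0.09, and their difference -0.36 ± 0.13 (edgeR adjusted p = 0.0354), a call lost without dcp2-ideg T60 replicate 3 (edgeR adjusted p = 0.0521). In dcp2-ideg, RPT4 read 204, 176, 206 and 231 CPM at T60 against 223, 224, 216 and 306 CPM at T0. In lsm1-ideg, RPT4 read 245, 249, 258 and 278 CPM at T60 against 222, 217, 232 and 234 CPM at T0. In wt, RPT4 read 232, 220, 221 and 265 CPM at T60 against 223, 247, 226 and 239 CPM at T0. RPT4 replicate 4 of dcp2-ideg T0 stood far above the other libraries of its group, and its feature overlaps a cryptic transcript on the same strand. The difference between the responses of RPT4 was -0.43 ± 0.15 (edgeR adjusted p = 0.0323), a call lost without dcp2-ideg T60 replicate 2 (edgeR adjusted p = 0.0512), and it was -0.25 ± 0.15 between dcp2-ideg and wt (adjusted p = 0.211).

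RPT6 (YGL048C, chromosome VII, 409980 to 411332, minus strand), the ATPase gene with the median dcp2-ideg response beyond wt among the RPT genes, was not called in this fit. In dcp2-ideg, RPT6 had 272, 231, 247 and 360 CPM at T60 against 261, 257, 256 and 390 CPM at T0. In lsm1-ideg, RPT6 had 304, 284, 296 and 322 CPM at T60 against 280, 250, 269 and 255 CPM at T0. In wt, RPT6 had 271, 247, 262 and 276 CPM at T60 against 260, 247, 249 and 219 CPM at T0. Replicate 4 was the highest dcp2-ideg library at both times, and lsm1-ideg T60 stood above lsm1-ideg T0. The changes were -0.068 ± 0.13 in dcp2-ideg, 0.20 ± 0.13 in lsm1-ideg and 0.12 ± 0.13 in wt (edgeR adjusted p = 0.688, 0.564 and 0.995). In the paired fit the difference between the dcp2-ideg and lsm1-ideg responses of RPT6 was called as lower (edgeR adjusted p = 0.0499).

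RPN6 (YDL097C, chromosome IV, 285317 to 286749, minus strand) (the RPN gene with the median dcp2-ideg response beyond wt) encodes a lid subunit that holds the regulatory particle to the core, and RPN11 (YFR004W, chromosome VI, 153350 to 154358, plus strand) the enzyme that cuts ubiquitin chains off substrates. In dcp2-ideg, RPN6 had 232, 207, 219 and 215 CPM at T60 against 250, 239, 239 and 227 CPM at T0. In lsm1-ideg, RPN6 had 281, 276, 274 and 280 CPM at T60 against 244, 242, 248 and 240 CPM at T0. In wt, RPN6 had 253, 255, 295 and 260 CPM at T60 against 256, 262, 240 and 254 CPM at T0. RPN6 in lsm1-ideg varied by 3.39 CPM (SD) at T60 and 3.5 CPM at T0, around means of 278 and 243 CPM. Its dcp2-ideg response of -0.13 ± 0.076 and its lsm1-ideg response of 0.19 ± 0.076 differed by -0.32 ± 0.11 (edgeR adjusted p = 0.0287). In dcp2-ideg, RPN11 was at 147, 129, 136 and 164 CPM at T60 against 144, 149, 144 and 206 CPM at T0. In lsm1-ideg, RPN11 was at 179, 174, 184 and 200 CPM at T60 against 159, 147, 152 and 154 CPM at T0. In wt, RPN11 was at 163, 153, 171 and 176 CPM at T60 against 157, 162, 164 and 146 CPM at T0. The lsm1-ideg T60 libraries of RPN11 stood above their T0 libraries, and dcp2-ideg T0 replicate 4 was far above the rest of its group. The responses of RPN11 differed by -0.43 ± 0.15 (edgeR adjusted p = 0.0334), and the call was lost without dcp2-ideg T60 replicate 2 or lsm1-ideg T60 replicate 4.

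PRE1 (YER012W, chromosome V, 177762 to 178578, plus strand) and PRE4 (YFR050C, chromosome VI, 248898 to 249938, minus strand) encode beta subunits of the core barrel. In dcp2-ideg, PRE1 had 161, 117, 151 and 155 CPM at T60 against 164, 156, 159 and 179 CPM at T0. In lsm1-ideg, PRE1 had 207, 190, 206 and 217 CPM at T60 against 161, 157, 162 and 159 CPM at T0. In wt, PRE1 had 164, 167, 118 and 172 CPM at T60 against 157, 166, 168 and 186 CPM at T0. In lsm1-ideg T60 every PRE1 library stood above all libraries of the other 5 groups. In dcp2-ideg, PRE4 stood at 168, 129, 167 and 207 CPM at T60 against 177, 171, 166 and 238 CPM at T0. In lsm1-ideg, PRE4 stood at 221, 213, 225 and 234 CPM at T60 against 173, 169, 168 and 174 CPM at T0. In wt, PRE4 stood at 189, 180, 142 and 184 CPM at T60 against 177, 183, 180 and 174 CPM at T0. The PRE4 libraries of lsm1-ideg T60 stood above those of lsm1-ideg T0 and of both wt groups, while dcp2-ideg T0 replicate 4 stood above them all. The difference of the dcp2-ideg response from that of lsm1-ideg was -0.53 ± 0.16 for PRE1 and -0.55 ± 0.17 for PRE4 (edgeR adjusted p = 0.0115 and 0.0204). The lsm1-ideg response minus that of wt was 0.48 ± 0.16 for PRE1 and 0.42 ± 0.17 for PRE4, and neither was called (edgeR adjusted p = 0.28 and 0.548).

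PRE6 (YOL038W, chromosome XV, 255291 to 256179, plus strand) and SCL1 (YGL011C, chromosome VII, 474354 to 475282, minus strand) encode alpha subunits, which form the gate of the barrel. In dcp2-ideg, PRE6 had 197, 156, 175 and 196 CPM at T60 against 193, 171, 188 and 207 CPM at T0. In lsm1-ideg, PRE6 had 235, 231, 227 and 248 CPM at T60 against 191, 189, 195 and 204 CPM at T0. In wt, PRE6 had 201, 196, 189 and 214 CPM at T60 against 199, 203, 198 and 194 CPM at T0. Every PRE6 library of lsm1-ideg T60 stood above all libraries of the other 5 groups, and the dcp2-ideg groups overlapped. The dcp2-ideg and lsm1-ideg responses of PRE6 differed by -0.34 ± 0.12 (edgeR adjusted p = 0.037), a call lost when any of 4 single libraries was left out. In dcp2-ideg, SCL1 had 239, 224, 218 and 197 CPM at T60 against 244, 219, 235 and 199 CPM at T0. In lsm1-ideg, SCL1 had 297, 264, 269 and 288 CPM at T60 against 251, 239, 246 and 228 CPM at T0. In wt, SCL1 had 244, 236, 249 and 238 CPM at T60 against 240, 236, 225 and 247 CPM at T0. SCL1 had the median dcp2-ideg response beyond wt among the core genes. Its lsm1-ideg T60 libraries stood above all libraries of the other 5 groups, and the difference of -0.24 ± 0.12 between the strains' responses was not called (edgeR adjusted p = 0.13, and 0.0448, called, in the paired fit).

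Among the accessory genes, ECM29, whose product ties the core to the regulatory particle, rose in both degron strains. It averaged 109 ± 11.9 CPM in dcp2-ideg T60 and 73.4 ± 16.2 CPM in dcp2-ideg T0, and 130 ± 10 CPM in lsm1-ideg T60 and 82.1 ± 5.5 CPM in lsm1-ideg T0 (SD, n = 4 each). The rise was 0.57 ± 0.14 and 0.66 ± 0.14 on the log2 scale, without overlap in either strain (edgeR adjusted p = 0.00136 and 0.00986). The lsm1-ideg call was lost without lsm1-ideg T60 replicate 4 (edgeR adjusted p = 0.0517), and neither response was called beyond wt (edgeR adjusted p = 0.0506 and 0.318). The paired fit called both beyond wt (edgeR adjusted p = 0.00515 and 0.0433). The dcp2-ideg response of ECM29 was also called beyond wt with scaling by total counts, a filter at 10 CPM, protein-coding features alone and without the 4 libraries that stood apart, and the lsm1-ideg one without these 4.

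UMP1 (YBR173C, chromosome II, 581601 to 582209, minus strand) encodes the chaperone that matures the core particle. In dcp2-ideg, UMP1 had 82, 56.3, 72.1 and 71.3 CPM at T60 against 83.9, 71.8, 76.2 and 77.5 CPM at T0. In lsm1-ideg, UMP1 had 109, 91.2, 97.4 and 96.4 CPM at T60 against 79.2, 80.1, 83.9 and 75 CPM at T0. In wt, UMP1 had 77.8, 81.6, 49.4 and 76.2 CPM at T60 against 74, 79, 69.2 and 79.6 CPM at T0. The lsm1-ideg T60 libraries stood above all other libraries, and wt T60 replicate 3 was far below its group. The change of 0.31 ± 0.12 in lsm1-ideg was not called, nor was that of -0.13 ± 0.12 in dcp2-ideg (edgeR adjusted p = 0.263 and 0.383). The lsm1-ideg change of UMP1 was called in the paired fit (edgeR adjusted p = 0.0472).

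BLM10 (YFL007W, chromosome VI, 123350 to 129990, plus strand) encodes another cap of the core particle. In dcp2-ideg, BLM10 had 175, 187, 183 and 135 CPM at T60 against 187, 174, 177 and 124 CPM at T0. In lsm1-ideg, BLM10 had 177, 192, 180 and 199 CPM at T60 against 183, 177, 169 and 168 CPM at T0. In wt, BLM10 had 168, 167, 214 and 160 CPM at T60 against 168, 176, 176 and 195 CPM at T0. T60 and T0 overlapped in every strain, and the changes were 0.04 ± 0.12 in dcp2-ideg, 0.10 ± 0.12 in lsm1-ideg and -0.01 ± 0.12 in wt, all uncalled (edgeR adjusted p = 0.801, 0.775 and 0.998).

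In wt, which received the same compounds, none of the 41 genes was called by edgeR, where 0% of all features were called in either direction, and 1 (TMC1) had an unadjusted p under 0.05, as did 388 of all features. DESeq2 called 0 of the 41 and 1 feature in all. The T60 libraries stood above all T0 libraries in RPN7 and PRE10 (2 of 41 genes, where 1.15% of all features did), and below them in 0 (0.892% of all features). At T0, before the compounds were added, none of the 41 differed between a degron strain and wt by edgeR's test or by DESeq2's, where 0.586% of all features were higher and 0.238% lower in dcp2-ideg (0.824% in either direction) and 0.195% higher and 0.153% lower in lsm1-ideg (0.348%). The unadjusted p was under 0.05 for 4 of the 41 genes in dcp2-ideg and 0 in lsm1-ideg, and for 1417 and 834 of the 11776 features tested. TMC1 was higher in all dcp2-ideg T0 libraries than in all wt T0 libraries, by 0.46 ± 0.15, where 3.02% of all features were (edgeR adjusted p = 0.223). RPN4 and PUP1 were lower in all dcp2-ideg T0 libraries, where 2.21% of all features were, RPN4 by 0.39 ± 0.19 (edgeR adjusted p = 0.423).

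Genes with and without PACE were compared as a description. In lsm1-ideg, T60 stood above T0 in 28 of the 31 members with PACE (90.3%) and in 7 of the 10 without it (70%), with medians of 0.26 and 0.32. Both strands were searched, so a site between divergent genes can count for both. Some genes outside the set lie next to a member, as NOP14 does to RPN5 and YPI1 to RPN11. Members and other genes may thus share sites, which was not examined. Outside the 41 genes, 42 genes had PACE in the same window and 41 were tested. Of these, 9 (22%) stood above T0 in lsm1-ideg, against 7.14% of all features, with a median of 0.13, and SGT2, YBR284W and YAP1 were called as higher. Beyond wt in dcp2-ideg, 2 of the 31 members with PACE rose and 0 fell, and 11 of the 41 other PACE genes rose and 3 fell, where 18.5% of all features rose and 15.9% fell.

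Other genes of the ubiquitin pathway were counted in lists by role, for dcp2-ideg at T60 against T0 beside the 27.9% of all features that rose and the 23.9% that fell, and for lsm1-ideg beside 1.12% and 0.73%. Among the 5752 protein-coding genes tested, 1123 rose and 2245 fell in dcp2-ideg, and 64 rose and 76 fell in lsm1-ideg. Of 8 assembly chaperones of the proteasome, IRC25, POC4, NAS2 and HSM3 rose in dcp2-ideg at T60 and none fell, IRC25 by 0.59 ± 0.13 and POC4 by 0.94 ± 0.22, while in lsm1-ideg none was called and 0 had an unadjusted p under 0.05. Beyond wt, IRC25 alone of these was called in dcp2-ideg, as higher, where 18.5% of all features rose. Of 10 E1 and E2 enzymes, which activate and pass on ubiquitin, 5 fell (RAD6, CDC34, UBC4, UBC6 and UBC7) and 1 rose (UBC5) in dcp2-ideg, with -0.70 ± 0.10 for UBC6 and 0.58 ± 0.15 for UBC5, and none was called in lsm1-ideg. Scaling by total counts moved the median of all features to 0.63, against 0.08, a shift that exceeds the size of the falls of CDC34, UBC4 and UBC7. Of 7 genes of SCF ligases, the type that auxin-based degrons use, edgeR called none in any comparison in the fit of all features with TMM scaling. At T60 against T0, 3 of them had an unadjusted p under 0.05 in dcp2-ideg, as did 6743 of the 11776 features tested, and none did in lsm1-ideg. In dcp2-ideg at T60, other settings called 1 as lower (DESeq2) or, as higher, 2 (a filter at 10 CPM), 3 (protein-coding features alone) and 5 (scaling by total counts). The paired fit called 2 as higher and 1 as lower, where 31.5% of all features rose and 28.1% fell. Shares of all features called in the other settings are given below with the counts of members. With 7 genes, these counts are not read as a result about SCF ligases. Of 9 other ligases HUL5 rose and UFD4, RSP5 and SAN1 fell in dcp2-ideg, and of 8 ubiquitin receptors and deubiquitinases DOA4 rose and DSK2 and UBP3 fell, with none called in lsm1-ideg from either list. Of 8 further Cdc48 cofactors, OTU1, a deubiquitinase that binds Cdc48, rose by 1.20 ± 0.10 in dcp2-ideg and by 0.45 ± 0.10 in lsm1-ideg (edgeR adjusted p = 3.86e-10 and 0.0124), and UBX4 and CUZ1 were called as higher in dcp2-ideg. Beyond wt, 1 of the 8 cofactors was called in dcp2-ideg, as higher, beside the same 18.5% of all features. CUZ1 changed by 0.47 in dcp2-ideg and by 0.37 in wt, a difference of 0.10 that was not called (edgeR adjusted p = 0.813). Of 4 transcription factors known to act on RPN4, YAP1 rose in both strains, by 0.44 ± 0.079 and 0.33 ± 0.079, and HSF1 in dcp2-ideg, by 0.46 ± 0.16. The paired fit, where 31.5% of all features rose and 28.1% fell in dcp2-ideg and 2.96% and 3.81% in lsm1-ideg, moved some of these counts by more than 1.5 times. In dcp2-ideg it called 5 receptors and deubiquitinases as lower, 2 other ligases as higher, 5 Cdc48 cofactors and all 4 regulators of RPN4 as higher, and 3 assembly chaperones as higher beyond wt (IRC25, POC4 and RPN14). In lsm1-ideg it called UBC4, UBC5 and 4 Cdc48 cofactors (SHP1, UBX4, OTU1 and CUZ1) as higher and RSP5 as lower.

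Targets of the heat shock factor Hsf1, which meets misfolded protein with chaperones as Rpn4 meets it with proteasomes, were counted beside the members. In lsm1-ideg, 14 of 18 were called as higher and none lower, where 1.12% of all features were higher, with a median log2 change of 0.96. In dcp2-ideg 9 rose and 4 fell, where 27.9% of all features rose and 23.9% fell, with a median of 0.48, and with scaling by total counts 12 rose and 0 fell. Beyond wt, 6 of the 18 rose and 1 fell in dcp2-ideg, where 18.5% of all features rose and 15.9% fell. In lsm1-ideg 6 rose and 0 fell beyond wt, where 0.187% of all features rose and 0.0255% fell. In the paired fit these counts were 10 and 2 in dcp2-ideg, and 14 and 0 in lsm1-ideg. Shares of all features in the paired fit and with scaling by total counts are given beside the counts of members in the same comparisons. The core particle genes, by comparison, had a median of 0.32 in lsm1-ideg and -0.02 in dcp2-ideg.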

How the data were processed

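Per the labels, poly(A) RNA of 24 libraries (6 groups of 4) was sequenced with a strand-specific protocol. The authors deposited whole-number read counts per feature, not normalized; the submitters' processing notes name STAR, featureCounts and sacCer3, with versions and strand setting not given in the sources used here. Counts of a feature were scaled with TMM factors and fitted in edgeR 4.0.16 (R 4.3.3) with 1 mean per group over all 24 libraries (18 residual degrees of freedom, quasi-likelihood F test, two-sided); filterByExpr kept 11776 of 12289 features, and p-values were adjusted by the Benjamini-Hochberg method over these, with a call at adjusted p under 0.05. The SE is the log2 change divided by the square root of F. Library totals ran from 41835174 to 83929951 counts.

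The responses compared were T60 against T0 in each strain, each degron strain's response minus that of wt, the dcp2-ideg response minus the lsm1-ideg response, and, before the addition, each degron strain against wt. Values by library are given for RPN4, TMC1, UBI4, CDC48, UMP1 and BLM10, for the PRE, RPT and RPN gene with the median dcp2-ideg response of its class, and for members called between the strains' responses or in lsm1-ideg beyond wt. The members and lists were chosen with earlier results of these data known. Alternatives were DESeq2 1.42.0, scaling by total counts, a filter at 10 CPM in 4 libraries or no filter, protein-coding features alone, blocks by replicate number, and libraries left out. Whether numbers pair the libraries was checked by correlating deviations of protein-coding genes from group means: all 4 T60 and T0 pairs were over 0.1 in dcp2-ideg (0.526 to 0.924) and in lsm1-ideg (0.184 to 0.492), and 2 of 4 in wt (-0.103 to 0.301). Replicate 4 of dcp2-ideg stood apart at both times and moves its group means. The deviations of the other dcp2-ideg libraries then shift together, so these 4 correlations are not separate evidence of pairing. Same-numbered libraries of different strains went together in some groups too. All 4 pairs were over 0.1 between lsm1-ideg T0 and wt T60 (0.251 to 0.401) and between lsm1-ideg T60 and wt T0 (0.123 to 0.284). Between dcp2-ideg T0 and wt T0, 0 of 4 were. In all, 38 of 60 pairs were over 0.1, so this was not particular to T60 and T0 of the same strain. The pairing within strains comes from the data, not the labels. The paired fit, added after the data were seen, had 1 block per strain and number, also in wt (12 blocks, 9 residual degrees of freedom). The fitting steps were tested on simulated data, with changes given to features drawn at random. Without blocks, edgeR recovered 1.25-fold changes in 5 of 50 features for lsm1-ideg T60 against T0. It recovered 0 of 50 for either degron strain beyond wt and for the difference between the responses. At 2-fold it recovered 33 of 50 for lsm1-ideg T60 against T0. Beyond wt it recovered 17 of 50 in dcp2-ideg and 16 in lsm1-ideg, and 14 between the responses. The features drawn at random were not matched to the members in level or spread. These rates therefore do not show which changes of the members could be detected. Motifs were searched in the RefSeq R64 genome.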

Additional observations from a re-analysis of the deposited data

Results flagged for a closer look

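Among the 96 sets of 4 libraries formed by the 16 genes given by library and the 6 groups, 9 held 1 library far from the other 3 by Dixon's criterion; chance flags about 1 in 20 groups. In dcp2-ideg T0, replicate 4 was far above the others for RPT4 (306 CPM against 216 to 224), RPT6 (390 CPM against 256 to 261), RPN11 (206 CPM against 144 to 149) and PRE4 (238 CPM against 166 to 177). In wt T60, replicate 3 was high for RPN6 (295 CPM against 253 to 260) and BLM10 (214 CPM against 160 to 168) and low for PRE1 (118 CPM against 164 to 172) and UMP1 (49.4 CPM against 76.2 to 81.6). In lsm1-ideg T60, replicate 4 was high for CDC48 (809 CPM against 753 to 761). Of these 9 values, 8 came from libraries whose levels over protein-coding genes also lay far from their group.

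The response to the same compounds differed between dcp2-ideg and lsm1-ideg, by edgeR's test of the difference itself, in 10 of the 41 genes, where 28.5% of all features were called. The log2 difference was 1.17 for UBI4 and 0.50 for NPL4. It was -0.69 for TMC1, -0.55 for PRE4, -0.53 for PRE1, -0.43 for RPT4, -0.43 for RPN11, -0.36 for RPT1, -0.34 for PRE6 and -0.32 for RPN6.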

How the results depend on the processing

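Beside counts of members called, shares of all features of the same fit called the same way are given in brackets. With protein-coding features alone these are shares of protein-coding features. With scaling by total counts, 21 members were higher in dcp2-ideg beyond wt (37.9%), 39 higher (53.6%) and 0 lower (6.82%) in dcp2-ideg at T60 against T0, 13 higher in lsm1-ideg at T60 against T0 (1.77%), and 0 lower in the dcp2-ideg against the lsm1-ideg response (3.14%). With protein-coding features alone these counts of members were 5 (21%), 12 (29.6%) and 0 (26.1%), 15 (1.84%), and 0 (14%). A filter at 10 CPM left 1 member lower between the responses (15.9%), 8 higher (32.1%) and 0 lower (27.8%) in dcp2-ideg, and 14 higher in lsm1-ideg (2.43%). DESeq2 called 3 members lower in dcp2-ideg beyond wt (18.7%), 19 lower between the responses (16.2%), 4 lower in dcp2-ideg (27.2%) and 8 higher in lsm1-ideg (1.98%). Without the 4 libraries that stood apart, 6 members were higher (22.2%) and 2 lower (21.6%) in dcp2-ideg beyond wt, 4 higher in lsm1-ideg beyond wt (0.662%), 26 lower between the responses (19.9%), 8 higher (30.8%) and 4 lower (27.1%) in dcp2-ideg, and 31 higher in lsm1-ideg (4.62%). Without both dcp2-ideg libraries of number 4, 3 members were lower in dcp2-ideg beyond wt (18.7%), 3 higher in lsm1-ideg beyond wt (0.525%), 17 lower between the responses (15.9%), 3 lower in dcp2-ideg (24.6%) and 22 higher in lsm1-ideg (2.57%). With lsm1-ideg and wt libraries alone, 18 members were higher in lsm1-ideg (1.97%). These last 3 settings and the block per strain were chosen after the data were seen, and the cause of the changes was not tested.

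With a replicate block per strain and number, 3 members fell in dcp2-ideg beyond wt (21.2%), 3 rose in lsm1-ideg beyond wt (0.679%), 24 were lower between the responses (19.5%), 4 fell in dcp2-ideg (28.1%) and 22 rose in lsm1-ideg (2.96%); the other counts of members moved by less than 1.5 times. With a block by number alone, shared by the strains, 2 members (RPT4 and RPN1) fell in dcp2-ideg (24.8%), and no other count moved by over 1.5 times.

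Leaving out each library in turn, members higher ranged from 3 to 4 in dcp2-ideg beyond wt, from 4 to 8 in dcp2-ideg and 2 to 15 in lsm1-ideg; 1 in lsm1-ideg beyond wt and 2 between the responses were higher in each fit. Members lower ranged from 0 to 3 in dcp2-ideg beyond wt (over 0 without dcp2-ideg T0 replicate 4 or T60 replicate 4), 5 to 15 between the responses (15 without dcp2-ideg T0 replicate 4, where 16.8% of all features were lower, 14 without T60 replicate 4, 13%, and 5 without T60 replicate 2, 13.5%) and 1 to 3 in dcp2-ideg (moved by dcp2-ideg T60 replicate 4 and wt T60 replicates 3 and 4). Leaving out dcp2-ideg T0 replicate 4 gave the 8 higher members in dcp2-ideg (28.5%) and the 15 in lsm1-ideg (1.99%), and leaving out wt T60 replicate 3 gave 6 in lsm1-ideg (1.55%). The calls of UBI4 and NPL4 in dcp2-ideg, and of TMC1 in both strains, held in each of these fits.

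Changes near 0 in dcp2-ideg beyond wt turned positive with total count scaling for RPN4 (0.35), RPT6 (0.33), RPN6 (0.30), SCL1 (0.44), UMP1 (0.45) and CDC48 (0.44), with protein-coding features alone for RPN4 (0.054), RPT6 (0.027), RPN6 (0.0074), SCL1 (0.15), UMP1 (0.15) and CDC48 (0.15), and with the 10 CPM filter for RPN4 (0.020), SCL1 (0.11), UMP1 (0.12) and CDC48 (0.12). Leaving out single libraries moved this difference between -0.31 and 0.056 for RPN4, -0.20 and 0.031 for UMP1 and -0.086 and 0.15 for BLM10, and the lsm1-ideg one between -0.10 and 0.36 for RPN4. RPN4 was at 0.024 without the 4 libraries and BLM10 at -0.0073 with DESeq2. Between the responses, total count scaling gave 0.096 for RPT1, 0.020 for RPT4, 0.13 for RPN6, 0.027 for RPN11 and 0.11 for PRE6, and in dcp2-ideg 0.24 for RPN1.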

Other observations

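The level of UBI4 in dcp2-ideg T60 was 422 ± 26 CPM, against 134 ± 9.13 CPM in dcp2-ideg T0 (SD, n = 4 each), while the summed level of the Cdc48 group (CDC48, UFD1, NPL4 and TMC1) was 1090 ± 44.3 CPM in dcp2-ideg T60 against 917 ± 30.7 CPM in dcp2-ideg T0. In lsm1-ideg that sum was 1320 ± 34.1 CPM at T60 against 902 ± 25.8 CPM at T0, and in wt it was 936 ± 55.5 CPM at T60 against 904 ± 30.6 CPM at T0. The sums at T60 stood above those at T0 in every library of both degron strains, and no test was made of them. They include TMC1, and nothing measured here ties its product to Cdc48. In dcp2-ideg, 3 of the 4 genes had a positive log2 change and CDC48 a negative one, -0.053, so the sum does not stand for a rise of each gene. TMC1 had the largest log2 change of these genes, 1.72 in lsm1-ideg and 1.03 in dcp2-ideg. CDC48 itself was called in neither strain by edgeR with TMM scaling of all features.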
